A study of Caenorhabditis elegans with 32 samples.

Results

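The cytosolic translation initiation and elongation factors of the nematode Caenorhabditis elegans were followed as a group of mRNAs in 4 strains that differ at lotr-1, the gene of a germ granule protein. Members were taken by name, as the genes called eif, eef, eft or iff with a number, plus ifg-1, inf-1, iftb-1 and egl-45. This gave 35 of the 46926 genes in the count table. The rule uses names and no measured value, though it was set with earlier results of these data known. The table has no row named iftb-1; it lists an eIF2 beta subunit as eif-2beta, which is a member. The eIF4E genes (ife) were not included. By role the members are 2 factors of start codon selection (eif-1 and eif-1.A), 3 subunits of eIF2, 5 of eIF2B, 12 of eIF3, 2 eIF4 factors (ifg-1 and inf-1), 2 eIF5A genes (iff-1 and iff-2), the 3 factors eif-2A, eif-2D and eif-6, 5 genes of eEF1, and eef-2.

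In eukaryotes eIF2 carries the initiator tRNA to the small ribosomal subunit and eIF2B recharges it with GTP, while eIF3 is the scaffold on that subunit. The eIF4 factors bring the capped mRNA, and eIF1 and eIF1A guide the search for the start codon. During elongation eEF1A delivers each aminoacyl-tRNA, eEF1B recharges eEF1A, and eEF2 moves the ribosome along the message. In mammals the mRNAs of many of these factors, like those of the ribosomal proteins, are under strong translational control.

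The wild type, strain DUP167, carries allele sam85, in which lotr-1 has an N-terminal 3xFLAG::GFP tag. DUP207 (ΔLOTR-1, sam117) has a full in-frame deletion, DUP217 (ΔLOTUS, sam113) lacks the LOTUS domain, and DUP185 (ΔTudor, sam102) lacks the Tudor domain. The genotype labels give the tag in all 4 strains, so no untagged animals were compared, and each genotype is a single strain. Whole hermaphrodites on day 1 of adulthood, grown at 20 C without treatment, were lysed in pools. Each strain has 4 replicates, and each lysate gave a total RNA library (lysate) and a library of mRNA from the polysome part of a sucrose gradient, which makes 32 libraries of polyadenylated RNA.

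Library totals ran from 31.4 to 40.2 M counts in the lysates and from 27 to 36.2 M in the polysome fraction. The lotr-1 mRNA stood at 28.1 to 80.8 counts per M counts of library (CPM) in the ΔLOTR-1 lysates and at 107 to 329 in the wild type (log2 change -2.06, SE 0.10, adjusted p = 2.51e-08). ΔLOTUS (134 to 304 CPM) and ΔTudor (101 to 321 CPM) lysates overlapped the wild type, so this gene does not check their labels. In the polysome fraction the libraries labelled ΔLOTR-1 held 41.6 to 125 CPM of lotr-1 and the wild type 40.6 to 111, so the deletion was not seen there, and polysome results of that strain are given by label. Same-numbered libraries of different strains resembled each other, and the main tests therefore carry the replicate number as a block. In all 8 marker lists, for germ line, oocyte, sperm, yolk, intestine, muscle, neuron and hypodermis, every marker was detected in every library.

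The lowest count of any member in a library was 250. Together the members took 2.37 to 3.36% of the lysate counts and 2.28 to 2.94% of the polysome counts. The carrier gene eef-1A.1 (WBGene00001168, older name eft-3) took 0.979 to 1.49% of the lysate counts. All 35 passed the filter on low counts in every comparison.

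The first comparison asked which factor mRNAs were richer or poorer in polysomes than in the lysate they came from. In the main scaling (TMM) the polysome fraction was higher in the mRNAs of eIF1, eIF1A, all eIF2 subunits and both eIF5A genes. It was lower in those of 2 eIF2B subunits and of eif-2D. Within eIF3, 6 subunits were higher and 2 lower in the wild type, so the complex did not move as 1 unit. In the wild type 17 of 35 members were called higher and 6 lower, by the quasi-likelihood test of edgeR with the lysate as block and a Benjamini-Hochberg adjusted p below 0.05. Over all genes 29% were called higher and 26.6% lower in the same test. The member median was 0.18 on the log2 scale against 0.08 over all genes.

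Start codon selection gave large and even shifts. The mRNA of eif-1 (WBGene00020868) stood at 200, 199.5, 155.0 and 170.6 CPM in wild-type lysates 1 to 4 and at 411.0, 403.1, 397.8 and 388.7 CPM in their polysomes. All 4 polysome values lay above all 4 lysate values. The log2 difference was 1.15 (SE 0.11, adjusted p = 1.21e-07), and over the 16 lysates of all strains the ratio ran from 0.92 to 1.54. For eif-1.A, whose product works beside eIF1 on the small subunit, lysates held 456.7, 431.1, 401.6 and 475.3 CPM and polysomes 1006, 1024, 797.6 and 943.8 CPM in the wild type. Again the fractions did not overlap, and the log2 difference was 1.09 (SE 0.07, adjusted p = 1.66e-09).

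The widest rise was that of iff-1 (WBGene00002064), an eIF5A gene known in C. elegans for its role in the germ line. eIF5A relieves ribosomes that stall during elongation. Wild-type lysates held 1086, 934.2, 765.1 and 820.6 CPM and polysomes 2604, 2818, 1985 and 1890 CPM. The lowest polysome library was above the highest lysate, and the log2 difference was 1.36 (SE 0.08, adjusted p = 4.68e-10). Its paralogue iff-2 (WBGene00002065), known as the somatic form, rose by 0.96 (SE 0.09, adjusted p = 7.49e-08) in the same strain, from 191.6, 201.8, 476.0 and 670.7 CPM to 364.0, 414.4, 987.7 and 1190 CPM. For iff-2 the fractions overlapped across replicates, while each polysome library was above its own lysate; without the block this call was lost (adjusted p = 0.26).

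In the main scaling all 3 eIF2 subunits were called higher in each strain's polysomes, which depends on the scaling, as given further on. In the wild type their log2 differences ran from 0.39 to 0.96. The widest was eif-2alpha (WBGene00021351), the subunit whose phosphorylation slows initiation in stress, with 125.1, 178.7, 24.59 and 55.06 CPM in the lysates and 239.5, 376.5, 35.86 and 133.2 CPM in the polysomes. Its level differed far more between replicates than between fractions, so the fractions overlapped. The log2 difference of 0.96 (SE 0.17, adjusted p = 8.43e-05) was not called without the block (adjusted p = 0.367).

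The exchange factor of eIF2 went a different way. None of its 5 subunits was called higher in wild-type polysomes and 2 were called lower. For eif-2Bdelta (WBGene00008670), a regulatory subunit, wild-type lysates held 78.22, 77.8, 44.19 and 33.55 CPM and polysomes 32.39, 29.53, 26.41 and 20.71 CPM. Every polysome library was below every lysate, with a log2 difference of -1.03 (SE 0.16, adjusted p = 2.14e-05). The catalytic subunit eif-2Bepsilon (WBGene00008428) stood at 23.86, 25.56, 24.48 and 20.53 CPM in the lysates and 12.49, 13.95, 13.42 and 11.35 CPM in the polysomes. The groups did not overlap here either, and the difference was -0.88 (SE 0.10, adjusted p = 7.73e-07). Of the other 3 subunits, eif-2Balpha was called higher in ΔLOTR-1 and ΔLOTUS, and eif-2Bbeta and eif-2Bgamma were called in no strain. The eif-2Balpha calls were lost without the block.

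Among the eIF3 subunits the log2 differences in the wild type ran from -0.67 to 0.705. The mRNAs of subunits F, G, H, I, J and K were called higher in all 4 strains, and those of subunit A (egl-45) and D were called lower in all 4. Without the block the calls of subunit D were lost in every strain, and those of H in the wild type and ΔLOTUS. The product of egl-45 is the large subunit that holds the complex together. Wild-type lysates held 370.5, 380.9, 340.7 and 260.3 CPM of egl-45 (WBGene00001209) and polysomes 310.9, 208.3, 198.8 and 151.8 CPM. Only polysome library 1 lay within the lysate range, and the difference was -0.67 (SE 0.19, adjusted p = 0.00638; adjusted p = 0.108 without the block). Subunits B, E and L were called in no strain, and eif-3.C was called lower in ΔLOTR-1 and ΔLOTUS, with the block only.

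In the main scaling the eIF4 mRNAs stayed close to the lysate in the wild type, a result that depends on the scaling, as given further on. For ifg-1 (WBGene00002066), which encodes the eIF4G scaffold, lysates held 184.6, 185.8, 170.8 and 93.02 CPM and polysomes 204.9, 172.6, 154.9 and 96.73 CPM, a log2 difference of -0.01 (SE 0.13, adjusted p = 0.956). In ΔLOTR-1, ΔLOTUS and ΔTudor the differences were -0.43 (SE 0.13), -0.39 (SE 0.13) and -0.33 (SE 0.13), each called with the block and none without it. Whether these differ from the wild type is the test of translational efficiency given further on. For inf-1, the eIF4A helicase, the wild-type difference was 0.025 (SE 0.125, adjusted p = 0.881), with lysates of 807.4 to 947.7 CPM and polysomes of 721.4 to 1011 CPM.

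The factors outside these complexes were split. The mRNA of eif-2D (WBGene00016113), whose product delivers tRNA outside the usual route and helps recycle ribosomes in mammals and yeast, stood at 39.27, 33.42, 24.4 and 21.63 CPM in wild-type lysates. Their polysomes held 24.04, 24.35, 13.98 and 14.89 CPM. Each polysome library was below its own lysate, the ranges overlapped, and the difference was -0.63 (SE 0.10, adjusted p = 3.40e-05; adjusted p = 0.207 without the block). In contrast eif-6, which keeps free large ribosomal subunits from joining small ones, was called higher in all 4 strains. eif-2A, an alternative carrier of initiator tRNA in mammals, was called lower in the wild type, ΔLOTR-1 and ΔLOTUS. Without the block its calls in the wild type, ΔLOTR-1 and ΔLOTUS were lost.

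For elongation, the genes of the carrier and those of its exchange factor were each split. The carrier mRNA eef-1A.1 stood at 12030, 13210, 13330 and 12990 CPM in wild-type lysates and 14860, 12690, 13760 and 12550 CPM in polysomes, a difference of 0.06 (SE 0.14, adjusted p = 0.733). Its paralogue eef-1A.2 (WBGene00001169, older name eft-4) was called higher, by 0.63 (SE 0.12, adjusted p = 0.00016, and 0.609 without the block). These 2 genes encode near-identical proteins, so the division of reads between them is uncertain. The eEF1B subunit genes eef-1B.1 and eef-1B.2 were called higher in all 4 strains and eef-1G in none. For eef-2, the translocation factor, lysates of 3741, 4070, 5075 and 4712 CPM met polysomes of 3744, 3362, 4072 and 3463 CPM, and the difference of -0.26 (SE 0.18, adjusted p = 0.23) was not called. This outcome for eef-2 also depends on the scaling, as given further on.

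**Figure D1:**
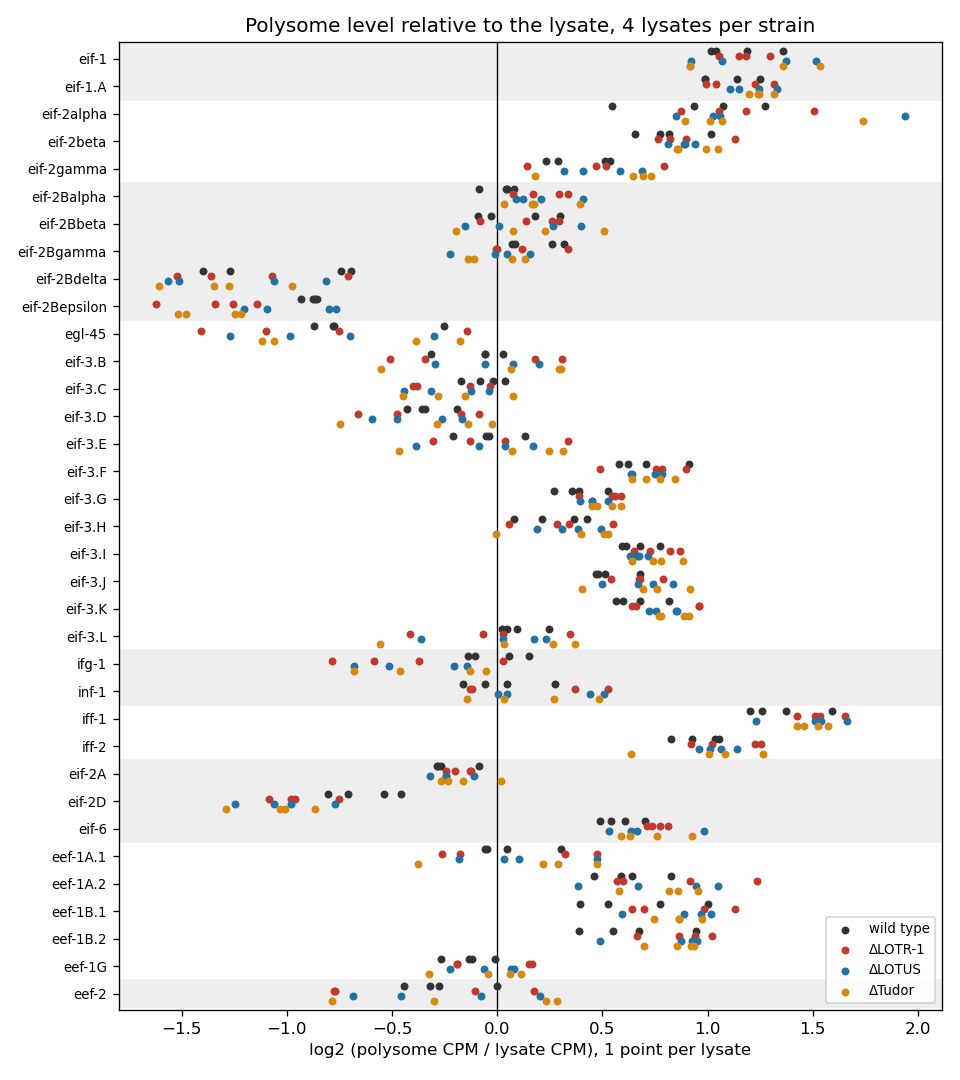
Log2 ratio of polysome to lysate CPM for the 35 members (vertical axis, grouped by role with shaded bands), with 1 point per lysate and the strain in colour. The points of 16 members lie above 0 in all 16 lysates and those of 5 members, eif-2Bdelta, eif-2Bepsilon, egl-45, eif-3.D and eif-2D, lie below 0 in all 16.

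The mutants gave the same direction for most of these members. In the libraries labelled ΔLOTR-1 18 members were called higher and 8 lower, where 30.5% and 27.8% of all genes were. ΔLOTUS gave 18 and 8, with 31.4% and 27.8% of all genes, and ΔTudor gave 17 and 6, with 30.6% and 28.5%. The set called higher in all 4 strains had 17 members and the set called lower in all 4 had 5. In each strain the share of members called higher (48.6 to 51.4%) was above that of all genes, and the share called lower (17.1 to 22.9%) was below it. The median level was 223 CPM over the members and 8.31 CPM over all tested genes. The part of level in these shares was not tested. Without the block 15, 17, 17 and 17 members were called in the wild type, ΔLOTR-1, ΔLOTUS and ΔTudor, where 19.3%, 23.3%, 23.6% and 24% of all genes were.

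These ratios are relative to the scaling. TMM, the main scaling, assumes that most genes do not differ between fractions. In the wild type 29% of all genes were called higher and 26.6% lower, so the calls do not bear this out. Scaling to library totals instead moved the median of all genes by -0.35 in the wild type, and the member calls there became 13 higher and 14 lower. With library totals the splits were 14 and 13 in ΔLOTR-1, 14 and 12 in ΔLOTUS and 14 and 11 in ΔTudor, and the eIF3 median turned negative in every strain. Shares of all genes called with library totals are not given, so whether the members still differed from all genes there is not shown. The wild-type eIF4 median went from 0.008 to -0.337 with library totals, and both genes were called lower. With DESeq2 size factors that median was -0.112 and neither gene was called. With library totals eef-2 was called lower in every strain, at -0.604 in the wild type. In each strain 2 of the 3 eIF2 subunits were then called higher. A change of scaling shifts all genes nearly alike, so values relative to the median of all genes must nearly match. Relative to that median the members' median was 0.10 under both scalings in the wild type, which is no check of the result. Of the members called higher there, 1, eif-3.H, changed sign with library totals. So did eif-2Balpha and eif-3.H in ΔLOTR-1, eif-2Balpha in ΔLOTUS and none in ΔTudor.

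Related lists show how the members stand among other translation genes. In the wild type 77 of 81 ribosomal protein mRNAs were called higher in polysomes and 2 lower, with a median of 1.19. Of 5 eIF4E genes 4 were higher (median 0.63), and of 9 genes for enzymes that modify eIF5A and eEF2 3 were higher and 1 lower (median 0.15). Of 32 aminoacyl-tRNA synthetase genes 4 were higher and 10 lower, with a median of -0.17. Release, recycling and poly(A) binding genes gave 1 higher and 3 lower of 6 (median -0.20), mitochondrial translation factors 0 higher and 3 lower of 5 (median -0.31), and kinases with TOR signalling 1 higher and 7 lower of 12 (median -0.49).

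Some marker sums differed between the fractions as well. Summed over 10 germ line markers, wild-type lysates held 1862 to 3547 CPM and polysomes 999.9 to 1811. The 7 intestine markers summed to 3748 to 5980 CPM in lysates and 8041 to 10300 in polysomes. The 8 sperm markers ran from 127.7 to 879.7 CPM in lysates and from 332.5 to 2060 in polysomes, each polysome above its own lysate. Neuron sums were 174.9 to 226.8 CPM in lysates and 231.2 to 330.9 in polysomes. Ranges of the other sums overlapped, with muscle at 2564 to 4422 and 2912 to 3982, hypodermis at 3248 to 4283 and 3257 to 6431, oocyte at 1871 to 8613 and 1120 to 7345, and yolk at 10290 to 54570 and 6153 to 50370 CPM. Set against its own lysate, each polysome library was lower for oocyte and yolk and higher for hypodermis. Muscle went both ways. No marker of these lists was at 0, and their part in the ratios of the members was not tested. In whole animals, fewer cells of a type and less RNA per cell cannot be told apart.

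The second comparison asked which factor mRNAs differ in the lysates when lotr-1 or a domain of it is deleted. With the replicate block, most called members were lower in the mutants, by modest amounts, and a few were higher. ΔLOTR-1 had 0 members higher and 9 lower, where 2.46% of all genes were called higher and 5.36% lower. ΔLOTUS had 2 higher and 19 lower, against 9.47% and 11.1% of all genes, and ΔTudor 3 higher and 21 lower, against 5.7% and 7.89%. The member medians were -0.16, -0.24 and -0.24 on the log2 scale, and those of all genes 0.005, -0.011 and -0.004. All 3 comparisons share the 4 wild-type lysates. As in the first comparison, the members have a higher median level than all genes, and its part in these shares was not tested. The 9 genes called lower in each were eif-1, eif-2Balpha, eif-3.J, eif-3.K, iff-1, eif-6, eef-1B.1, eef-1B.2 and eef-1G.

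The number of calls depended on the block and on which replicates entered. Without the block, edgeR called 0 members in each mutant (in the order ΔLOTR-1, ΔLOTUS, ΔTudor, 7, 15 and 17 reached an unadjusted p below 0.05), where 0.27%, 0.144% and 0.0753% of all genes were called. Without replicate 1 the counts were 0, 6 and 4, without replicate 2 they were 12, 23 and 14, without replicate 3 they were 0, 3 and 0, and without replicate 4 they were 0, 14 and 16. Shares of all genes are not given for these subsets, so the counts cannot be read as particular to the members. At an unadjusted p under 0.05, 13, 14 and 14 members of ΔLOTR-1 passed without replicates 1, 3 and 4, and 25 of ΔTudor without replicate 3. The within-number differences of ΔLOTR-1 from the wild type had member medians of -0.25, 0.01, -0.16 and -0.23 for numbers 1 to 4. Those of ΔLOTUS were -0.16, -0.15, -0.23 and -0.27, and those of ΔTudor -0.15, -0.29, -0.14 and -0.28.

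Scaling matters here too. Library totals moved the median of all genes upward by 0.12, 0.10 and 0.14 in the 3 mutants, and the member calls became 3 higher and 4 lower, 4 and 11, and 3 and 7. The shares of all genes called with library totals are not given. All 9, 19 and 21 members called lower kept a negative estimate, and 4, 11 and 7 of them kept their call. Relative to the median of all genes, the member medians were -0.165, -0.225 and -0.235 with TMM and -0.168, -0.222 and -0.233 with library totals. A change of scaling shifts all genes nearly alike, so this match was fixed in advance and is no check of the result.

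All 3 genes of the eEF1B exchange factor were called lower in each mutant. Its subunit gene eef-1B.1 (WBGene00018846) stood at 1040, 995.9, 925.8 and 1145 CPM in wild-type lysates 1 to 4. ΔLOTR-1 held 795.4, 910.5, 777.0 and 834.1 CPM, ΔLOTUS 794.4, 868.8, 714.9 and 838.5 CPM, and ΔTudor 837.7, 764.7, 768.2 and 832.9 CPM. Every mutant lysate lay below every wild-type lysate. The log2 changes were -0.327, -0.371 and -0.395, each with SE 0.065 and adjusted p of 0.0104, 0.00181 and 0.00269.

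A like pattern held for eef-1B.2 (WBGene00012768), another eEF1B subunit gene. It fell from 551.9, 524.0, 489.9 and 557.8 CPM in the wild type to 453.6, 411.8, 389.9 and 416.5 CPM in ΔTudor, a change of -0.385 (SE 0.062, adjusted p = 0.00266). In ΔLOTR-1 it held 426.0, 479.8, 418.6 and 421.9 CPM, a change of -0.303 (SE 0.062, adjusted p = 0.0121), so that mutant did not overlap the wild type either. The carrier gene eef-1A.1 was called lower in ΔTudor, at 10180, 8676, 11130 and 11730 CPM (change -0.35, SE 0.09, adjusted p = 0.0242). In ΔLOTR-1 and ΔLOTUS its changes were -0.16 (SE 0.09, adjusted p = 0.319) and -0.24 (SE 0.09, adjusted p = 0.0801). The changes of eef-1A.2, -0.13, -0.16 and -0.16 (SE 0.12 each), were not called (adjusted p = 0.549, 0.406 and 0.422). For eef-2 the changes were -0.06, -0.18 and -0.26 (SE 0.10 each), and none was called (adjusted p = 0.765, 0.262 and 0.118).

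The mRNA of eif-6 (WBGene00001234), the factor of the large ribosomal subunit, stood at 160.9, 166.9, 157.6 and 156.6 CPM in the wild type. It held 122.9, 153.0, 123.1 and 127.7 CPM in ΔLOTR-1, where it fell by 0.31 (SE 0.065, adjusted p = 0.0137). ΔLOTUS lysates had 126.7, 135.5, 116.8 and 128.5 CPM and ΔTudor lysates 136.4, 124.6, 123.9 and 128.9 CPM, with changes of -0.36 (SE 0.065) in both. No mutant lysate reached the lowest wild-type value.

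Within eIF3, 2, 8 and 8 of the 12 subunits were called lower in ΔLOTR-1, ΔLOTUS and ΔTudor, and none higher. Estimates ran from -0.31 to -0.02 in ΔLOTR-1, from -0.36 to 0.05 in ΔLOTUS and from -0.35 to -0.002 in ΔTudor. For eif-3.J (WBGene00012738), a loosely bound subunit, wild-type lysates held 186.9, 193.6, 155.2 and 169.3 CPM and ΔLOTUS lysates 148.4, 159.8, 118.0 and 130.5 CPM. The ranges overlapped, and at each replicate number the mutant was lower (change -0.36, SE 0.06, adjusted p = 0.0012). For eif-3.G (WBGene00001230) the wild type stood at 134.5, 133.0, 138.1 and 162.7 CPM and ΔLOTUS, with no overlap, at 113.0, 118.2, 107.6 and 112.2 CPM (change -0.35, SE 0.08, adjusted p = 0.00708). For egl-45 the changes of -0.083, -0.015 and -0.137 (SE 0.08 each) were not called, with adjusted p of 0.582, 0.928 and 0.301.

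The 3 members called higher in a mutant were ifg-1, eif-2D and eif-2Bepsilon. The scaffold gene ifg-1 stood at 184.6, 185.8, 170.8 and 93.02 CPM in the wild type and 271.0, 215.6, 248.1 and 161.8 CPM in ΔLOTUS. The mutant was higher at each number, though the ranges overlapped through its replicate 4, and the change was 0.51 (SE 0.10, adjusted p = 0.00285). In ΔTudor it was 0.37 (SE 0.10, adjusted p = 0.0217), and in ΔLOTR-1 the estimate of 0.32 (SE 0.10, adjusted p = 0.0576) was not called. For eif-2D the wild type held 39.27, 33.42, 24.4 and 21.63 CPM and ΔLOTUS 55.74, 41.64, 36.21 and 26.4 CPM. It rose by 0.40 (SE 0.07, adjusted p = 0.00223) in ΔLOTUS and by 0.35 (SE 0.07, adjusted p = 0.00761) in ΔTudor, with overlapping ranges. In ΔLOTR-1 the estimate was 0.22 (SE 0.07, adjusted p = 0.0842).

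The eIF2B subunits spread in both directions in the lysates. eif-2Bepsilon was called higher in ΔTudor, at 32.32, 37.79, 40.62 and 22.22 CPM against 23.86, 25.56, 24.48 and 20.53 in the wild type (change 0.42, SE 0.12, adjusted p = 0.0328). Each ΔTudor lysate was above the wild type of its number. In ΔLOTR-1 and ΔLOTUS the estimates were 0.38 and 0.35 (SE 0.12 each, adjusted p = 0.0718 and 0.0563). eif-2Balpha was called lower in all 3 mutants, and the other 3 subunits in none. Among the eIF5A genes iff-1 was called lower in all 3 mutants, by changes of -0.27, -0.28 and -0.31 (SE 0.07 each, adjusted p = 0.0401, 0.0159 and 0.0145). Its lysate levels were 626.4 to 896.3 CPM in ΔLOTR-1, 639.7 to 844.0 in ΔLOTUS and 665.2 to 890.7 in ΔTudor, overlapping the 765.1 to 1086 of the wild type. The paralogue iff-2 fell in ΔTudor, by a change of -0.345 (SE 0.10, adjusted p = 0.0314). Its ΔLOTR-1 estimate of -0.225 (SE 0.10, adjusted p = 0.177) was not called. In ΔLOTUS the estimate of 0.003 (SE 0.10, adjusted p = 0.986) averaged differences of 0.335, 0.305, -0.284 and -0.278 at numbers 1 to 4. The eIF4A gene inf-1 fell by 0.22 in ΔLOTUS and by 0.235 in ΔTudor (SE 0.07 each, adjusted p = 0.0484 and 0.0453).

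**Figure D2:**
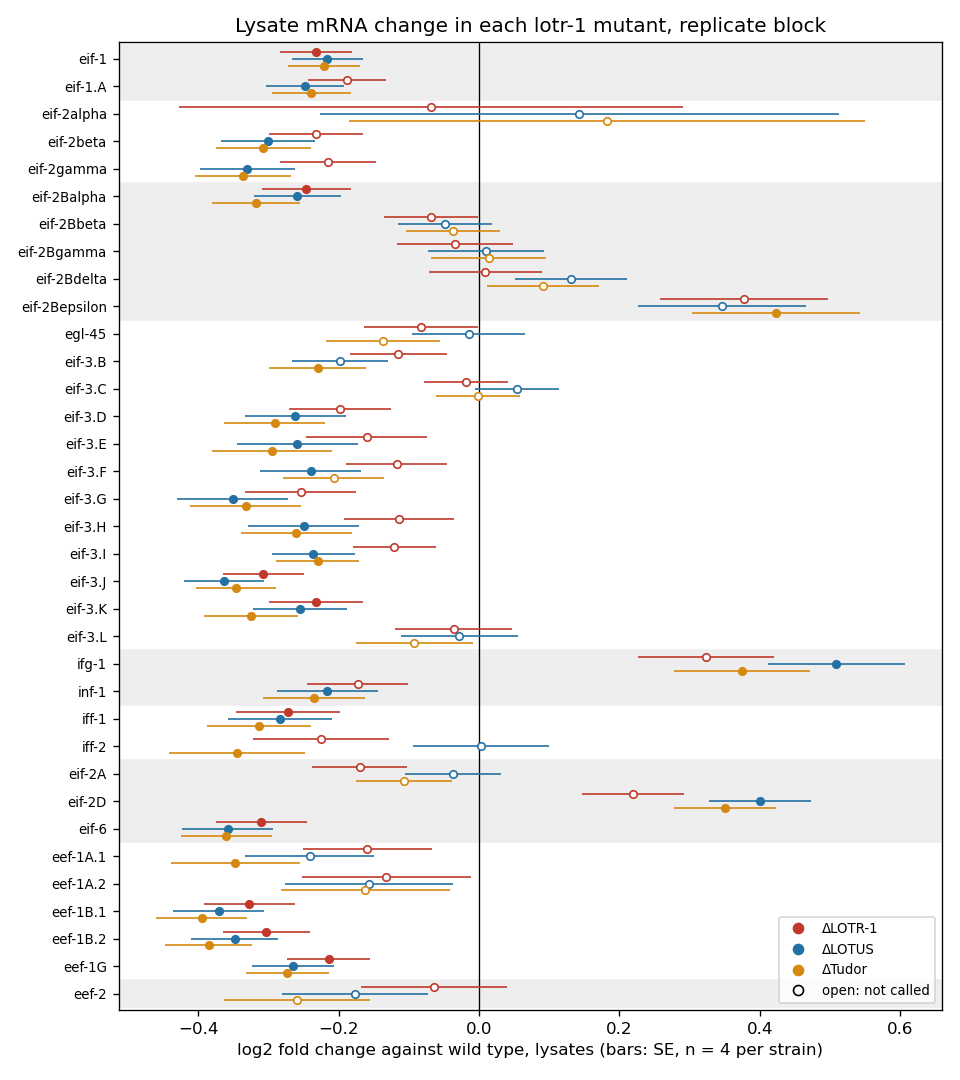
Log2 fold change against the wild type in lysates for the 35 members, with the replicate block, 4 lysates per strain, bars of 1 SE and filled points for called changes. Most points lie left of 0, with ifg-1, eif-2D and eif-2Bepsilon on the right in all 3 mutants.

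The other translation lists differed in direction. Ribosomal protein mRNAs were called lower for 72, 78 and 79 of 81 genes in ΔLOTR-1, ΔLOTUS and ΔTudor (medians -0.33, -0.39 and -0.40), with 1, 0 and 1 higher. Of 5 eIF4E genes 2, 4 and 5 were lower, and of 9 modifying enzymes 3, 5 and 5 were. Aminoacyl-tRNA synthetases gave 4, 6 and 9 lower and 1, 2 and 2 higher of 32. Kinases and TOR signalling gave 0, 5 and 3 higher of 12 and none lower (medians 0.06, 0.14 and 0.18). Release, recycling and poly(A) binding genes gave no call, and mitochondrial translation factors gave 1 lower of 5 in each mutant. Without the block edgeR called none of these list genes in the lysates.

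Ranges of the marker sums of the mutant lysates overlapped those of the wild type in every list. For the germ line they were 1862 to 3547 CPM in the wild type, 1699 to 3502 in ΔLOTR-1, 1900 to 3388 in ΔLOTUS and 1660 to 3271 in ΔTudor. For oocytes they were 1871 to 8613, 1662 to 8555, 2585 to 8522 and 1884 to 8124 CPM. Set against the wild-type lysate of the same number, as the block does, some sums were lower at 4 of 4 numbers. These were the germ line sum in ΔLOTR-1 (2807, 3502, 2347 and 1699 CPM against 3266, 3547, 2488 and 1862), the intestine sum in ΔLOTUS and ΔTudor, and the hypodermis sum in ΔTudor. The intestine sums were 3320, 3385, 4833 and 5745 CPM in ΔLOTUS and 3360, 2957, 4855 and 5979 in ΔTudor, against 3748, 4025, 5858 and 5980. The hypodermis sums in ΔTudor were 3714, 2963, 3222 and 2988 CPM against 4283, 4093, 3711 and 3248. No sum was higher at 4 of 4 numbers in a mutant. Whether the composition of the animals has a part in the strain differences was not tested.

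No member was called between mutants in the lysates. In edgeR with the block 0 of 35 passed for ΔLOTUS against ΔLOTR-1, ΔTudor against ΔLOTR-1 and ΔLOTUS against ΔTudor, and an unadjusted p below 0.05 was reached by 2, 0 and 1. DESeq2 also called 0 in each, and 1.36%, 0.527% and 0.847% of all genes were called. The lowest adjusted p was 0.196. The estimates ran from -0.14 to 0.23, from -0.195 to 0.25 and from -0.08 to 0.35, with a median SE of 0.07. The upper end of the last range belongs to iff-2, whose ΔLOTUS level exceeded the ΔTudor level by 0.35 (SE 0.10, adjusted p = 0.206).

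In the polysome fraction no member was called in a mutant. For ΔLOTR-1, ΔLOTUS and ΔTudor against the wild type edgeR with the block gave 0 of 35 and DESeq2 also gave 0, and an unadjusted p below 0.05 was reached by 0, 5 and 1 members. For the first of these the labelled deletion was not seen in lotr-1 itself, as given above. Of all genes 0.631%, 1.05% and 0.228% were called. Estimates were negative for 32, 27 and 31 members, with medians of -0.095, -0.13 and -0.13 against 0.01 for all genes, and standard errors from 0.08 to 0.36. The lowest adjusted p, 0.167, belonged to eif-3.D in ΔLOTUS, with a change of -0.30 (SE 0.10). Between mutants the polysome counts were again 0 in edgeR and in DESeq2, 3, 0 and 2 members reached an unadjusted p below 0.05, and 0.481%, 0.208% and 0.306% of all genes were called.

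Translational efficiency was taken as the polysome to lysate ratio and tested with a strain by fraction term in a model of the 32 libraries. For ΔLOTR-1, ΔLOTUS and ΔTudor against the wild type edgeR and DESeq2 called 0 of 35 members, and 3, 1 and 2 reached an unadjusted p below 0.05 in edgeR. Of all genes 0.0554%, 0% and 0.00615% were called. The member medians were 0.055, 0.07 and 0.09, and those of all genes 0.02, 0.03 and 0.02. The lowest estimates were those of eif-2Bepsilon in ΔLOTR-1 (-0.46, SE 0.14, adjusted p = 0.837) and ΔTudor (-0.48, SE 0.14, adjusted p = 0.755), and of eif-2D in ΔLOTUS (-0.39, SE 0.14, adjusted p = 0.859). For ifg-1 the estimate was -0.42 in ΔLOTR-1 and -0.38 in ΔLOTUS (SE 0.18 each, adjusted p = 1).

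**Figure D3:**
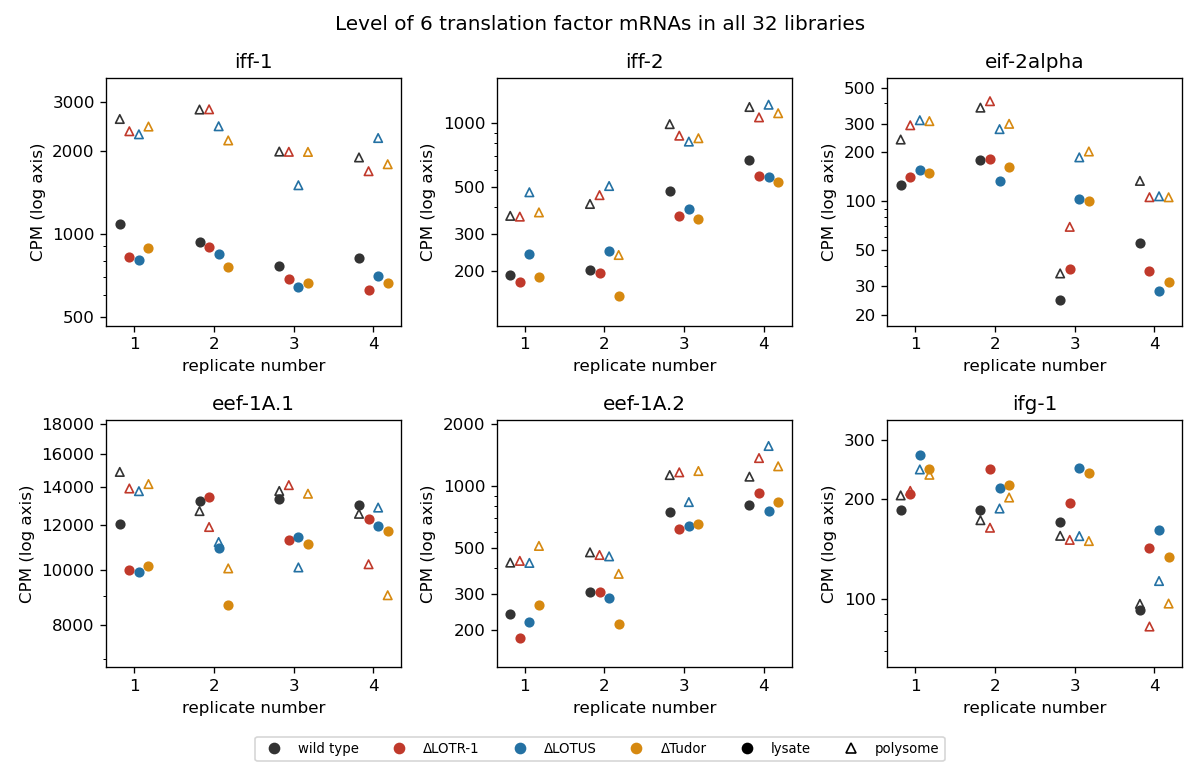
CPM on a log axis of 6 members in all 32 libraries by replicate number, with the strain in colour, filled circles for lysates and open triangles for polysomes. The paralogues iff-2 and eef-1A.2 are higher at numbers 3 and 4 than at 1 and 2 in every strain and fraction, while iff-1 and eef-1A.1 vary by less than 2-fold within a fraction.

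Replicates of a strain differed in some members by more than the strains did. Over the 16 lysates the highest value of a member was 1.27 to 7.4 times its lowest, with 7 members at 2-fold or above. In the polysomes this span was 1.4 to 11.5, with 9 members at 2-fold or above. The widest was eif-2alpha, at 24.59 to 181.8 CPM in lysates and 35.86 to 412.5 CPM in polysomes. At number 3 it stood at 24.59 CPM in the wild type and 37.94 in ΔLOTR-1, but at 103.3 in ΔLOTUS and 100.4 in ΔTudor. At number 4 all 4 lysates held 27.96 to 55.06 CPM, below the 125.1 to 181.8 CPM of numbers 1 and 2. Its strain changes in the lysates were therefore uncertain, at -0.07, 0.14 and 0.18 with SE from 0.36 to 0.37.

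The paralogue pairs shifted with the replicate number. In wild-type lysates 1 to 4 the level of iff-2 divided by that of iff-1 was 0.176, 0.216, 0.622 and 0.817. The other strains showed the same order of magnitude, with ΔLOTR-1 at 0.216, 0.218, 0.534 and 0.896, ΔLOTUS at 0.3, 0.296, 0.611 and 0.788, and ΔTudor at 0.211, 0.202, 0.530 and 0.789. In wild-type polysomes the ratio was 0.140, 0.147, 0.498 and 0.630. These ratios are not corrected for transcript length, so their change between libraries can be read but not their size.

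The eEF1A pair moved likewise. In wild-type lysates eef-1A.2 held 240.4, 306.6, 751.9 and 808.8 CPM, and divided by eef-1A.1 it was 0.02, 0.0232, 0.0564 and 0.0622. In the polysomes of that strain the ratio was 0.0287, 0.0376, 0.0822 and 0.0885. Lysates of the mutants lay between 0.0184 and 0.0262 at numbers 1 and 2 and between 0.0549 and 0.0751 at numbers 3 and 4, without overlap. ifg-1 showed a drop at number 4, with lysate levels of 93.02 to 161.8 CPM across strains against 170.8 to 271.0 CPM at the other numbers.

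Several marker sums changed with the same numbers. The 8 oocyte markers averaged 8046, 8357, 4179 and 2000 CPM over the 4 lysates of numbers 1 to 4. The 10 germ line markers averaged 3183, 3377, 2472 and 1780, the 8 sperm markers 166.4, 125, 676.1 and 889.4, the 7 muscle markers 2502, 2491, 4039 and 4322, the 7 intestine markers 3429, 3576, 5151 and 6052, and the 6 yolk markers 48320, 52500, 37860 and 17310. The sums of neuron markers (222.6, 222.1, 203.4 and 197.5) and hypodermis markers (3877, 3509, 3538 and 3315) varied less. None of these markers was at 0 in any library. Their part in the levels of the factors was not tested.

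As a description, the variance of log2 CPM over the 16 lysates was divided between replicate number, strain and the rest. For the median member the number held 46.2% and the strain 32.3%, while for the median gene of all tested these were 86.5% and 4.57%. Strain held more than number for 15 of 35 members, and number held over 50% for 16. It held 97.9% for eif-2Bbeta, 96.6% for eif-2Bdelta, 96.1% for eef-1A.2 and 92.7% for iff-2. The strain share was highest for eef-1G (76.6%), eif-6 (73.9%), eef-1B.2 (71.5%) and eef-1B.1 (71.3%). In the polysomes the median member had 65.5% with the number and 8.02% with the strain, against 78% and 4.82% for the median gene.

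**Figure D4:**
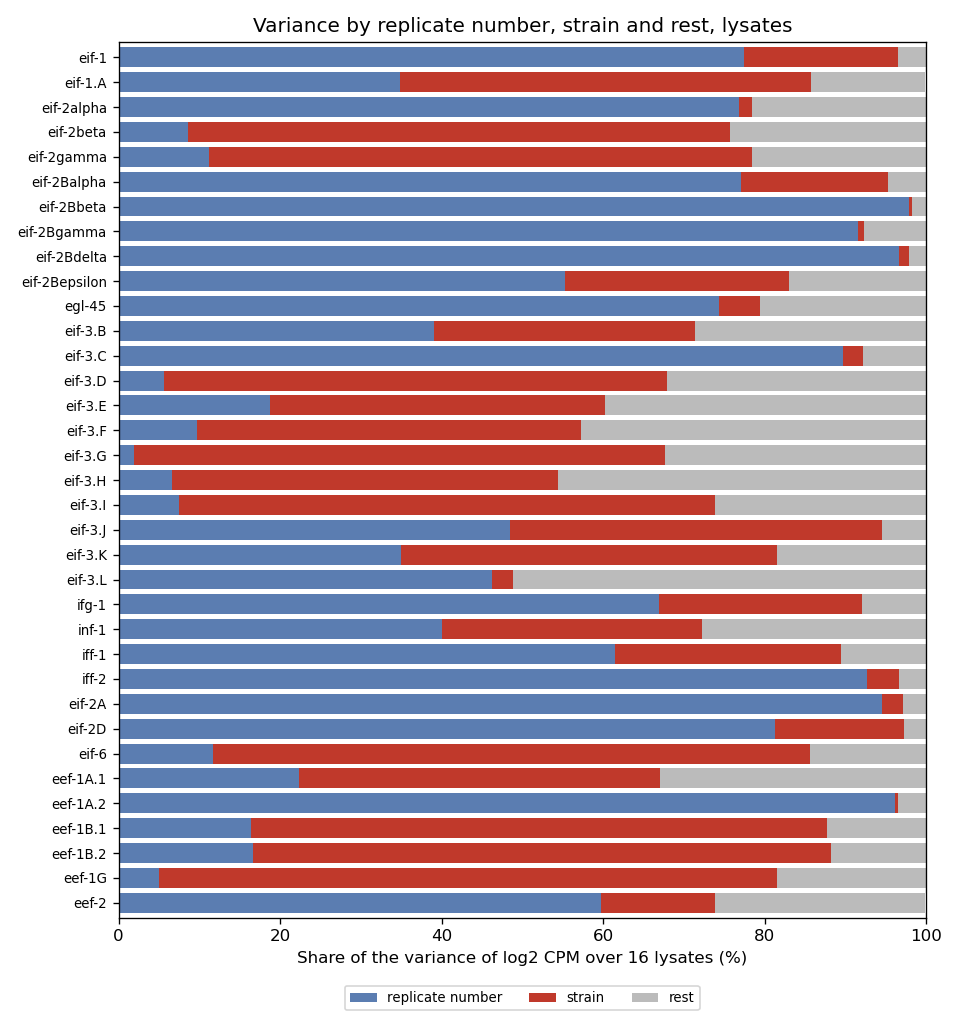
Share of the variance of log2 CPM over 16 lysates, in percent, held by replicate number, strain and the rest for the 35 members. Strain takes a longer segment than replicate number for eif-3.I, eif-6, eef-1B.1, eef-1B.2 and eef-1G, and a shorter one for eif-2Bbeta, eif-2Bdelta, iff-2 and eef-1A.2.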

How the data were processed

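Polyadenylated RNA of 32 libraries was sequenced from stranded mRNA libraries, per the labels' protocols. The submitters' processing notes name Salmon and DESeq2 but no versions. Genome build, annotation and strand setting: not given in the sources used here. Values in the deposited main table are expected counts (estimated counts) per gene from Salmon, of which 15.3% of positive values were not whole. They were rounded. A second deposited table of replicate-adjusted values, treated as a score since no source used here gives the authors' method of adjustment, served only as an alternative. Totals ran from 27 to 40.2 M counts. Intervals and tests speak of the spread between these samples, since the labels name biological replicates without describing separate cultures.

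R 4.3.3, edgeR 4.0.16, limma 3.58.1 and DESeq2 1.42.0 were used. Genes passed filterByExpr (minimum count 10, minimum total 15) and were scaled by TMM, and edgeR's quasi-likelihood test was run with Benjamini-Hochberg adjustment over all genes, calls at an adjusted p under 0.05, on 15939 genes in 16 lysates, 15378 in 16 polysome libraries and 16253 over both. The SE is the absolute log2 change divided by the square root of F. Printed CPM use TMM over all 32 libraries. The script was tested on simulated data.

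The replicate number was a block within a fraction, and the lysate (strain and number) across fractions. The study's description names strain by fraction and no replicate term. The block was made the main fit because the numbers pair the samples, the name of the adjusted table refers to replicate batches and both fractions come from 1 lysate; this was decided with earlier results known, including that the block gives many more calls. Deviations from group means of same-numbered libraries correlated, across genes, with r of 0.821 to 0.938 in lysates (24 pairs), 0.698 to 0.893 in polysomes (24 pairs) and 0.742 to 0.913 between fractions of 1 lysate (16 pairs). In the replicate-adjusted table r was -0.123 to 0.21 and -0.219 to 0.157. No source used here says what the number stands for.

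The members, lists and markers were chosen with earlier results of these data known. Named with statistics are, per comparison, the up to 4 called members with the largest rise and fall, plus eef-1A.1, eef-1A.2, iff-1, iff-2, eef-2, ifg-1, inf-1 and egl-45; eif-3.D in ΔLOTUS polysomes and the 6 members plotted by number were picked after their values were seen. Alternatives were no block, DESeq2, DESeq2 size factors, library totals, no low-count filter, the adjusted table, leaving out each replicate number, and, chosen after seeing the data, replicates 1 and 2 alone and 3 and 4 alone. A deposited sample description table was not used. No transcript lengths, sequences or coordinates were used, so levels are not corrected for length and different genes are not ranked by them.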

Additional observations from a re-analysis of the deposited data

Results flagged for a closer look

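In 19 members given with statistics and in the share of counts held by all members, 160 groups of 4 libraries were examined, and 5 held a library far from the other 3. Chance marks about 1 in 20 groups. In the ΔLOTR-1 lysates, replicate 2 stood at 138 CPM for eif-3.G (others 114 to 116), 153 CPM for eif-6 (others 123 to 128) and 480 CPM for eef-1B.2 (others 419 to 426). In the wild-type lysates, replicate 4 held 93 CPM of ifg-1 against 171 to 186 in the others. In the ΔTudor polysomes, replicate 1 held 1640 CPM of eef-1B.1 against 1390 to 1400.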

How the results depend on the processing

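Without the replicate block the lysate counts of called members went from 9, 21 and 24 in ΔLOTR-1, ΔLOTUS and ΔTudor to 0, 0 and 0, and the polysome to lysate counts from 23, 26 and 26 in the wild type, ΔLOTR-1 and ΔLOTUS to 15, 17 and 17; the pairing changed no count in the polysome, between-mutant or efficiency comparisons. DESeq2 size factors gave 5 in ΔLOTR-1, no low-count filter 2 in ΔLOTR-1 and 12 in ΔLOTUS, library totals 10 in ΔTudor, and 16 were called in ΔLOTR-1 from the replicate-adjusted values. Leaving out 1 replicate number gave 0 to 12, 3 to 23 and 0 to 16 in the lysates. Replicates 1 and 2 alone gave 0, 0 and 0, and replicates 3 and 4 alone 0, 5 and 0, on fewer samples. The cause of these shifts was not tested. Of these alternatives, shares of all genes are given further up for the fit without the block only. Library totals also turned the member medians of the polysome to lysate ratio to -0.16, -0.15, -0.08 and -0.16 in the wild type, ΔLOTR-1, ΔLOTUS and ΔTudor. Of 49 named changes none reversed; 49 kept their call with DESeq2, DESeq2 size factors and the adjusted table, 48 with library totals, 47 without the filter, 25 without the block and 34 to 48 without 1 replicate number. Every member had at least 250 counts in each library, and precision is set by 4 lysates per strain.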
